A study of Mus musculus with 12 samples.

Results

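The replication-dependent histone genes of the mouse were followed through the first day of T cell activation. They were taken as every row of the gene count table whose mouse symbol in GENCODE M21 begins with Hist1h, Hist2h, Hist3h or Hist4h and whose gene type is protein coding. The rule gave 67 of the 54232 genes in the table, and the 3 pseudogenes that carry such a symbol were left out. Of the 67, 6 encode the linker histone H1, 18 encode H2A, 18 encode H2B, 12 encode H3 and 13 encode H4. The Hist1 cluster on chromosome 13 held 54 of them between positions 21715763 and 23934851 (GRCm38). The Hist2 cluster on chromosome 3 held 10, chromosome 11 held the 2 Hist3 genes, and chromosome 6 held Hist4h4. The libraries came from naive CD4+ T cells of mouse spleen and pLN, either wild type (WT) or knocked out for Ddx55 (KO), a member of the DEAD-box family of RNA helicases. The cells were exposed to plate-bound anti-CD3 at 5 ug/ml and anti-CD28 at 2.5 ug/ml for 0, 8 or 24 h. Each of the 6 combinations of genotype and time had 2 libraries, made from total RNA after ribosomal RNA depletion and sequenced in read pairs of 150 bases. How the Ddx55 deletion was made and in which cells it acts is not stated in the labels, and neither is whether replicate libraries stem from different mice. The p-values below therefore measure the spread between these libraries only, which may be technical.

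Replication-dependent histones supply the protein around which newly copied DNA is wrapped: H3, H4, H2A and H2B form the nucleosome core, and H1 binds the linker DNA between nucleosomes. Most of their messages have no introns and no poly(A) tail. They end in a short conserved stem-loop that is bound by the stem-loop binding protein Slbp, cut a few bases downstream with the help of the U7 snRNP, and broken down quickly when DNA synthesis stops. Transcription of the clusters is driven in S phase through the coactivator Npat, and a naive T cell, which rests outside the cell cycle, enters its first S phase roughly a day after activation. Some of these genes can also give longer polyadenylated messages that read past the stem-loop, which have been described in cells that do not divide.

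The stem-loop was searched for after the stop codon of the annotated transcripts, as a 16-base core with a perfect 6-base stem around a 4-base loop rich in T. The core had to begin with GG, with only C or T in the rest of that side of the stem, and to end with CC. At least 2 of the loop bases before the last had to be T, so variants of the core would be missed. It was found in 46 of the 67 genes. The sites of 9 members whose values carry the results are shown with 5 bases on each side (GRCm38, 5′ to 3′ on the gene's strand, in the DNA alphabet). Capitals mark the stem and loop.
Hist1h3c, chr13:23745042-23745067, minus strand: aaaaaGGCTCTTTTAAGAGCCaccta
Hist1h3a, chr13:23761885-23761910, minus strand: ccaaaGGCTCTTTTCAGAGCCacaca
Hist1h2bj, chr13:22043633-22043658, plus strand: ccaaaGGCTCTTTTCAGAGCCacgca
Hist1h4i, chr13:22040961-22040986, minus strand: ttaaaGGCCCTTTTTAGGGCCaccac
Hist1h4d, chr13:23581945-23581970, plus strand: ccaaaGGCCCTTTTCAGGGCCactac
Hist1h1c, chr13:23739507-23739532, plus strand: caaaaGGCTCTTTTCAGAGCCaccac
Hist3h2a, chr11:58955167-58955192, plus strand: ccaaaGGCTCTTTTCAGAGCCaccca
Hist3h2ba, chr11:58949344-58949369, plus strand: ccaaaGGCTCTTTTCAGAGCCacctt
Hist2h4, chr3:96262934-96262959, minus strand: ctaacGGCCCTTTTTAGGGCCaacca
The core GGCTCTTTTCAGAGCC stood in 26 of the 46 genes, all of them H1, H2A, H2B or H3 genes. The H4 genes carried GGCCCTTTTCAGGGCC in 7 cases, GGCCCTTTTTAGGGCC and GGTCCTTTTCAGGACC in 2 each and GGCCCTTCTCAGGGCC in 1. The core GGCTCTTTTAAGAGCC of Hist1h3c was shared by 6 genes. Of the 9 sites, those of Hist1h2bj, Hist1h3a and Hist1h3c lie 23, 37 and 74 bases from the end of the annotated transcript. Those of Hist1h4i, Hist1h4d, Hist1h1c, Hist2h4 and Hist3h2a are followed by 330, 770, 840, 1257 and 1643 further annotated bases. No match to this core was found in the annotated 3′ UTR of Hist2h2be, which is 2192 bases long.

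Promoter windows were available for 62 members (RefSeq, GRCm38.p6) and covered the 250 bases before the RefSeq start site. The 130 bases next to the start are shown for 4 members with different time courses: Hist1h1c, high in resting cells, Hist1h3c and Hist1h2bk, high in WT cells at 24 h, and Hist3h2a, higher in KO than in WT cells at 24 h. Capitals mark the letters of the motifs searched for.
Hist1h1c, chr13:23738677-23738806, plus strand: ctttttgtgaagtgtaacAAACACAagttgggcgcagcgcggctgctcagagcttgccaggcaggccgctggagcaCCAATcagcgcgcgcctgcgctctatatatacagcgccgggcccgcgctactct
Hist1h3c, chr13:23745522-23745651, minus strand: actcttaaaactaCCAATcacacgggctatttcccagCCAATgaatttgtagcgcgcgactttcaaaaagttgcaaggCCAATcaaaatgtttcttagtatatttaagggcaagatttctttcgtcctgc
Hist1h2bk, chr13:22035691-22035820, plus strand: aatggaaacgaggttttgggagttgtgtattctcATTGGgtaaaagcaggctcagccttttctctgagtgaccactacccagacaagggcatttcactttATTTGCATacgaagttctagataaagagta
Hist3h2a, chr11:58954555-58954684, plus strand: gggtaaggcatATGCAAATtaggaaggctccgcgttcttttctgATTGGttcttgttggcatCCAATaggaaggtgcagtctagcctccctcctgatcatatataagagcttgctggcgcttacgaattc
The CCAAT box, read as CCAAT on either strand (ATTGG on the other), was in 51 of the 62 windows, or 82.3%, against 33.9% of 32851 windows of the same length over all genes. All 6 H1, 18 H2A and 16 H2B windows held it, and 3 of 12 H4 windows did. The octamer, ATTTGCAT on either strand (ATGCAAAT on the other), was in 13 of the 62 windows (21.0%) against 1.60% of all windows. It stood in 7 H2A and 6 H2B windows and in no H1, H3 or H4 window. The AC box of H1 promoters, searched for as AAACACA on either strand (TGTGTTT on the other), was in 9 windows (14.5%) against 6.25%, and 5 of the 6 H1 windows had it. The letters TATAAA on the gene's own strand were in 24 windows (38.7%) against 7.59%. Such matches of letters are descriptions and not evidence of binding, and the windows of H2A and H2B genes that start back to back share bases.

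The libraries held 16810375 to 19126498 counts over all genes. Levels are given as CPM, a library's counts of a gene scaled to a common library total after trimmed-mean (TMM) scaling. A pair of values always gives replicate 1 and then replicate 2. Ddx55 was lower in KO at every time, from 45.3 and 51.1 CPM to 19.5 and 18.9 CPM at 0 h, and from 52.8 and 55.2 CPM to 14.7 and 14.4 CPM at 24 h, so some reads of the gene remained in the KO libraries. The T cell label was borne out by 11 T cell markers, whose summed level lay between 3918 and 6956 CPM in the 12 libraries. Markers of neutrophils and granulocyte progenitors summed to 55.9 and 13.1 CPM in WT and to 507.7 and 506.2 CPM in KO at 0 h. Of these, 7 of 10 were called higher in KO, against 4.63% of all genes. CD8 T and NK cell markers summed to 37.1 and 31.5 CPM in WT and to 180.8 and 92.3 CPM in KO at 0 h. Of those, 3 of 6 were called higher in KO. Basophil and mast cell markers summed to 9.64 and 8.38 CPM in WT and to 165.4 and 597.5 CPM in KO at 24 h, when 6 of 7 were called higher, against 17.9% of all genes. In bulk libraries, fewer cells of a type and less RNA per cell cannot be told apart.

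Histone messages were a small part of the counts of every library. How fully messages without a poly(A) tail were captured was not measured, so these are not shares of the cells' RNA. The 67 members together drew 165 to 2176 counts a library, or 0.000935% to 0.0116% of its counts, and 24 to 53 of them had at least 1 count. A single count was worth 0.0501 to 0.0601 CPM, and the limit that a count of 0 allows (3 counts) was 0.150 to 0.180 CPM. Over the 12 libraries, 57 members had a count and 10 had none: Hist1h1t, Hist1h2aa, Hist1h2ao, Hist2h2aa1, Hist2h2aa2, Hist1h2ba, Hist1h2bq, Hist2h2bb, Hist2h3b and Hist2h3c1. Near-identical copies are common in the family. In the 10 members without a count, a median of 80.4% of all 150-base windows of the annotated exons also occurred in another gene, against 47.3% in 20 members with a count that were too low to test and 19.5% in the 37 tested members. The sources used here do not give how reads that fit several copies were counted, so the values of members with many shared windows are uncertain. All 18 H2A genes and 3 others overlap an annotated gene on the opposite strand, and whether the counting used strand is not given either. The 14 members with over 70% of shared windows held 326 of the family's 11671 counts. Of the 37 tested genes, 16 passed the filter on low counts only through the WT libraries at 24 h, so counts of calls that involve that group over the tested members cannot support a statement about the family. The other 21 passed without those libraries.

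The family's summed level fell and rose again during activation, and KO cells did not reach the WT level at 24 h. In WT the members summed to 79.3 and 80.7 CPM at 0 h, to 9.75 and 9.66 CPM at 8 h and to 109.3 and 117.7 CPM at 24 h. In KO the sums were 80.5 and 81.4 CPM at 0 h, 9.53 and 11.5 CPM at 8 h and 29.2 and 23.4 CPM at 24 h. The mean sum was thus 8.24-fold lower at 8 h than at 0 h in WT and 7.71-fold lower in KO. From 8 h to 24 h it was 11.7-fold higher in WT and 2.50-fold higher in KO. At 24 h the 2 genotypes did not overlap, and the KO mean was 4.32-fold below the WT mean.

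**Figure D1:**
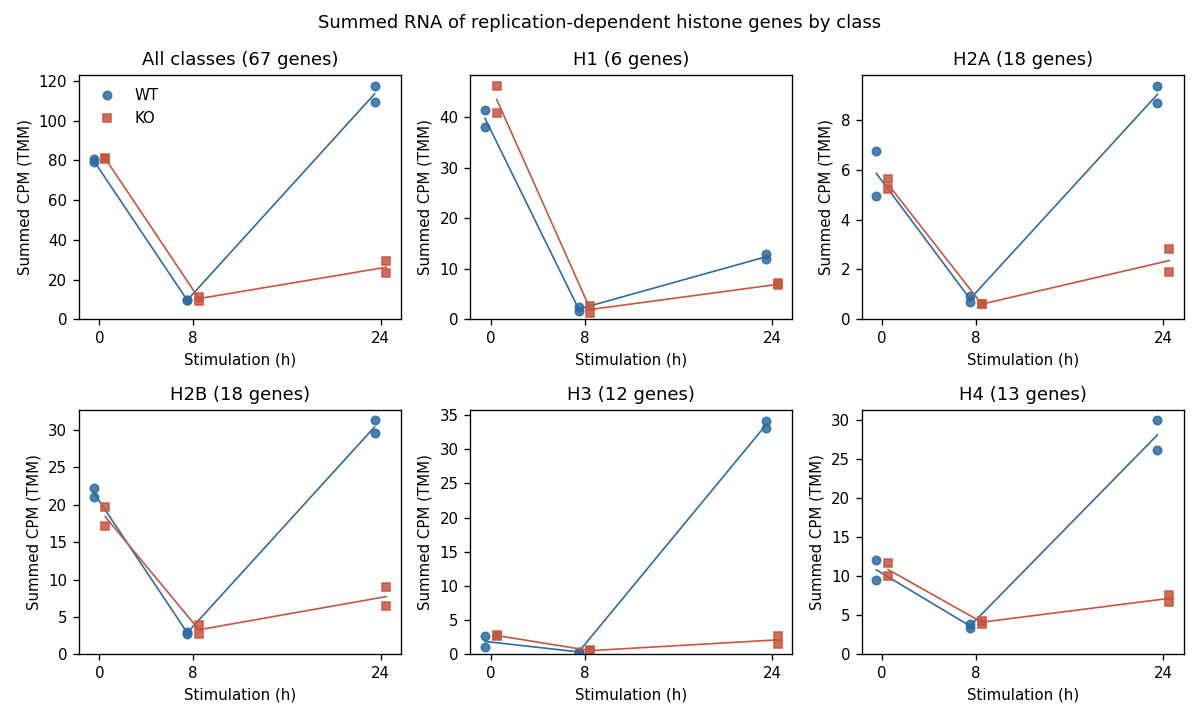
Summed level of the members of each histone class (CPM, vertical axis) against hours of stimulation for WT and KO, with each point 1 library and lines through the means of the 2 libraries. The 5 classes fall by 8 h in both genotypes and rise by 24 h mainly in WT, where H3 climbs to 33.1 and 34.1 CPM while KO stays at 2.67 and 1.56 CPM.

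The make-up of the sum changed with it. At 0 h in WT, Hist1h1c alone gave 42.7% of the members' CPM, and Hist1h1c and Hist2h2be together gave 57.6%. H3 genes summed to only 1.12 and 2.65 CPM at that time, H4 genes to 9.50 and 12.1 CPM, H2A genes to 4.96 and 6.74 CPM, H2B genes to 22.2 and 21.1 CPM and H1 genes to 41.5 and 38.1 CPM. Without Hist1h1c and Hist2h2be, the other 65 members summed to 30.7 and 37.1 CPM in WT at 0 h, 6.39 and 6.32 CPM at 8 h and 104.4 and 111.5 CPM at 24 h. Their sums in KO were 34.9 and 33.6, 6.83 and 6.29, and 20.4 and 15.1 CPM. Per kilobase of annotated exon, Hist1h1c led at 0 h in WT with 21.9 CPM per kb, followed by Hist3h2ba with 8.19, Hist2h2be with 4.56 and Hist1h4i with 4.06 CPM per kb. At 24 h in WT the leading members were Hist1h2bj with 29.6, Hist1h3c with 21.3, Hist1h4i with 19.0 and Hist1h3a with 18.6 CPM per kb. The order in KO at 24 h began with Hist1h4i at 4.84, Hist1h1c at 3.09 and Hist1h2bj at 1.87 CPM per kb.

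**Figure D2:**
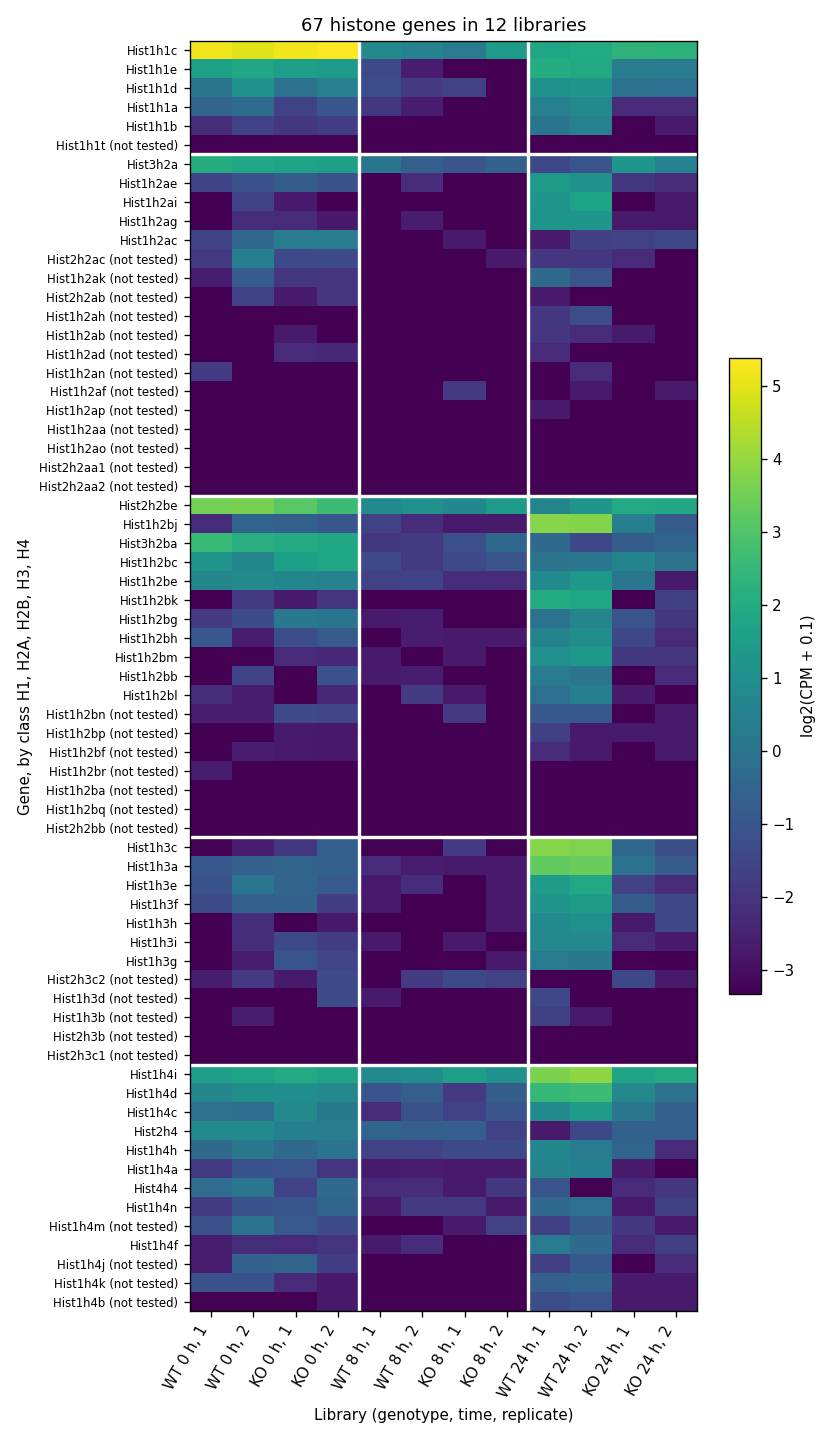
Level of each of the 67 members (rows, grouped by class) in each of the 12 libraries (columns, ordered by time and genotype), shown as log2 of CPM plus 0.1, where a brighter colour is a higher level and the darkest colour is a count of 0. The 2 WT columns at 24 h are bright over many H3, H4 and H2B rows, while Hist1h1c and Hist2h2be are brightest at 0 h.

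Single genes were tested with edgeR's quasi-likelihood test over 15679 genes, and a gene was called at a Benjamini-Hochberg adjusted p below 0.05. From 0 h to 8 h, 20 of the 37 tested members fell in WT and 0 rose, with a median log2 fold change of -2.41. Over all tested genes 33.6% were called lower and 28.3% higher. In KO 24 members fell and 0 rose, with a median of -2.94, or -2.33 when genes with a group at 0 counts are set to the bound that 3 counts give, and the shares over all genes were 32.9% lower and 28.6% higher. At an unadjusted p below 0.05 no member was higher in either genotype, and DESeq2 called 15 members lower in WT, 18 lower in KO and 0 higher. The WT count depended on 1 library, since only 12 members were called without replicate 2 of WT at 0 h. Some markers of other cells fell over the same hours. Neutrophil and granulocyte progenitor markers summed to 55.9 and 13.1 CPM in WT at 0 h and to 1.60 and 1.11 CPM at 8 h. In KO they summed to 507.7 and 506.2 CPM and then to 16.8 and 45.4 CPM. Of these, 5 of 10 were called lower in WT and 10 of 10 in KO. Of the CD8 T and NK cell markers 5 of 6 were called lower in WT and 6 of 6 in KO. Erythroid and monocyte markers were nearer the shares over all genes, each with 1 of 5 lower in WT and 2 of 5 in KO. In each genotype 1 of 4 tested B and plasma cell markers and 0 of 7 basophil and mast cell markers were called lower. The sums of both lists were nevertheless lower at 8 h. B and plasma cell markers went from 103.2 and 15.3 to 14.9 and 2.22 CPM in WT, and from 105.3 and 48.9 to 15.7 and 6.40 CPM in KO. Basophil and mast cell markers went from 35.6 and 13.0 to 10.3 and 7.32 CPM in WT, and from 290.3 and 774.8 to 110.6 and 370.3 CPM in KO. Markers of the T cells themselves also fell, with 6 of 11 T cell and 4 of 5 naive T cell markers lower in each genotype, while 2 of the 11 were higher. The part of other cells' RNA in the fall of the histone genes was not tested.

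From 8 h to 24 h, 31 tested members rose in WT and 1 fell, against 24.0% higher and 19.3% lower over all genes. Their median log2 fold change was 4.20, or 3.66 with the 7 members that had no count in 1 group set to their bound. Of the 31, 16 had passed the filter only through WT at 24 h, and among the 21 other members 15 rose and 1 fell, with a median of 3.12. In KO 13 members rose and 0 fell, with a median of 2.28 (1.69 with bounds) and shares of 18.9% higher and 15.6% lower over all genes. No member was lower in KO at an unadjusted p below 0.05, and DESeq2 called 10 higher and 0 lower. The KO count was 6 without replicate 1 of KO at 24 h and 7 without replicate 1 of KO at 8 h. In a comparison added after the data had been seen, 24 h was set against 0 h directly. In WT 23 members were called higher and 7 lower, against 33.0% and 33.6% of all genes. Among the 21 members that passed the filter without WT at 24 h, 8 were higher and 7 lower, with a median of 0.50. In KO 0 members were called higher and 9 lower, against 30.3% and 29.2% of all genes. No member was higher in KO at an unadjusted p below 0.05, and DESeq2 called 6 lower and 0 higher. The KO count was 3 without replicate 2 of KO at 24 h and 5 without replicate 1 of KO at 0 h.

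At 0 h and at 8 h no single member passed the test between the genotypes. At 0 h edgeR called 0 of the 37 members, with 4 higher and 1 lower at an unadjusted p below 0.05, and DESeq2 called 0. Over all genes 4.63% were called higher and 1.07% lower in KO. At 8 h edgeR called 0 members, 3 had an unadjusted p below 0.05, and DESeq2 called 0. The shares over all genes were 1.90% higher and 0.746% lower. The change of the genotype difference from 0 h to 8 h was called for 0 members by edgeR and by DESeq2, with 3 at an unadjusted p below 0.05, and for 0.261% of all genes upward and 0.733% downward. Levels at 8 h were too low for a close comparison: 31 of the 37 tested members had fewer than 10 counts in each library at that time, and Hist1h2bk, Hist1h1b and Hist1h2ai had none.

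Of the 37 tested members, 28 were lower in KO than in WT at 24 h and 2 were higher, against 20.7% lower and 17.9% higher over all genes. Of the 28, 16 passed the filter on low counts only through the WT libraries at 24 h, a route that favours members high in that group. The median log2 fold change was -2.59, and over all genes it was 0.02. The calls were 7 of 7 tested H3 genes lower, 7 of 9 H4 genes lower, 8 of 11 H2B genes lower and 1 higher, 3 of 5 H2A genes lower and 1 higher, and 3 of 5 H1 genes lower. Among the 21 members that passed the filter without those libraries, 12 were lower and 2 higher. By class these were 3 of 3 H3 genes lower, 4 of 6 H4 genes lower, 3 of 6 H2B genes lower and 1 higher, 0 of 2 H2A genes lower and 1 higher, and 2 of 4 H1 genes lower. With no filter on low counts, 57 members could be tested, of which 32 were lower and 2 higher. The change of the genotype difference from 8 h to 24 h was called downward for 2 members and upward for 1, against 8.96% and 5.49% of all genes. From 0 h to 24 h, a comparison added after the data had been seen, it was called downward for 19 members and upward for 2, against 14.8% and 11.9%. Of the 19, 10 had passed the filter only through WT at 24 h. Among the 21 other members 9 were called downward and 2 upward. DESeq2 gave values for 19 members in that comparison and called 6 downward and 2 upward.

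**Figure D3:**
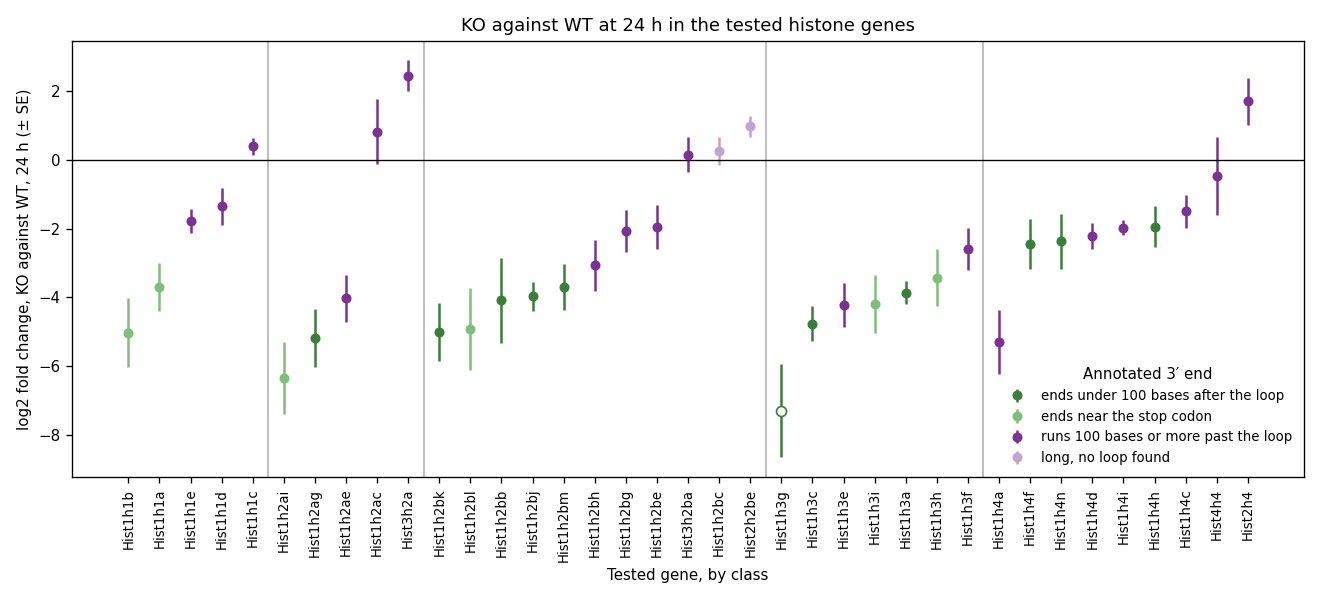
Log2 fold change of KO against WT at 24 h (vertical axis, bars 1 standard error from edgeR) for each of the 37 tested members, in order of class from H1 to H4 and coloured by the annotated 3′ end. All 7 H3 genes lie below 0, Hist3h2a, Hist2h2be and Hist2h4 lie above it, and the open symbol marks Hist1h3g, which had no count in KO at 24 h.

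H3 genes, which encode the S phase form of the histone whose tail carries many of the known chromatin marks, had the widest fold difference between the genotypes of the class sums at 24 h. Hist1h3c (chr13:23744973-23745602, minus strand) had 0 and 0.0601 CPM in WT at 0 h, 0 CPM in both libraries at 8 h, and 13.8 and 13.0 CPM at 24 h. In KO it had 0.165 and 0.551 CPM at 0 h, 0.169 and 0 CPM at 8 h, and 0.653 and 0.323 CPM at 24 h. The gene was thus below 1 CPM in every library but the 2 of WT at 24 h. It drew 497 counts in WT at 24 h against 0 at 8 h, which is at least 157-fold higher when 3 counts are allowed for the group at 0. Against WT, KO at 24 h was lower by a log2 fold change of -4.76 ± 0.50 (SE, adjusted p = 5.87e-06).

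Hist1h3a (chr13:23761853-23762386, minus strand) was measured at 0.413 and 0.541 CPM in WT at 0 h, 0.110 and 0.0585 CPM at 8 h and 9.53 and 10.3 CPM at 24 h. Its KO levels were 0.605 and 0.551 CPM, 0.0564 and 0.0551 CPM, and 0.871 and 0.485 CPM at the same times. It fell by 8 h and rose by 24 h in both genotypes, with log2 fold changes from 8 h to 24 h of 6.75 ± 0.46 in WT (adjusted p = 2.3e-08) and 3.45 ± 0.63 in KO (adjusted p = 0.00069). At 24 h both KO values were below both WT values, and the log2 fold change was -3.86 ± 0.34 (adjusted p = 4.99e-07). Hist1h3e (chr13:23561534-23562369, minus strand) stood at 2.64 and 3.68 CPM in WT at 24 h and at 0.218 and 0.108 CPM in KO, a log2 fold change of -4.22 ± 0.64 (adjusted p = 0.000107). Before that, its levels were 0.354 and 0.962 CPM in WT and 0.605 and 0.451 CPM in KO at 0 h, and at most 0.117 CPM at 8 h. The other 4 tested H3 genes, Hist1h3f, Hist1h3g, Hist1h3h and Hist1h3i, had 19 to 45 counts in each WT library at 24 h and 0 to 9 in each KO library. Hist1h3g had 40 counts in WT and 0 in KO at 24 h, at least 13.3-fold lower. As a class, H3 genes summed to 15.9-fold less in KO than in WT at 24 h, while in WT they were 98.5-fold higher at 24 h than at 8 h.

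H4 genes differed more among themselves. Hist1h4i (chr13:22040636-22041362, minus strand) was detected in every library, with 2.77 and 3.13 CPM in WT at 0 h, 1.71 and 1.81 CPM at 8 h and 12.5 and 15.03 CPM at 24 h. KO cells gave 3.91 and 3.11 CPM at 0 h, 2.76 and 2.04 CPM at 8 h and 3.27 and 3.77 CPM at 24 h. The KO values at 24 h thus overlapped those at 0 h, and the log2 fold change between these times was 0.01 ± 0.24 (adjusted p = 0.981). WT rose from 8 h to 24 h by a log2 fold change of 2.96 ± 0.25 (adjusted p = 2.24e-07), and KO against WT at 24 h was -1.97 ± 0.23 (adjusted p = 9.07e-06).

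Hist1h4d (chr13:23581598-23582735, plus strand) ran from 1.53 and 1.86 CPM in WT at 0 h through 0.386 and 0.527 CPM at 8 h to 5.49 and 6.17 CPM at 24 h. The KO series was 1.93 and 1.60, 0.169 and 0.496, and 1.63 and 0.862 CPM. It fell by 8 h in both genotypes, and at 24 h KO was lower with a log2 fold change of -2.22 ± 0.37 (adjusted p = 0.000267). Hist1h4c (chr13:23697635-23698454, minus strand) differed less: its WT levels were 0.826 and 0.782, 0.110 and 0.351, and 1.67 and 2.65 CPM, and its KO levels were 1.60 and 1.05, 0.226 and 0.386, and 0.979 and 0.538 CPM. The log2 fold change of KO against WT at 24 h was -1.50 ± 0.49 (adjusted p = 0.0247). That call was lost in DESeq2 (adjusted p = 0.0873), without replicate 2 of KO at 24 h (adjusted p = 0.191) and without replicate 2 of WT at 24 h (adjusted p = 0.202).

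Hist2h4 (chr3:96261682-96263311, minus strand), an H4 gene of the chromosome 3 cluster, followed another course. In WT it had 1.71 and 1.68 CPM at 0 h, 0.606 and 0.527 CPM at 8 h and 0.0538 and 0.270 CPM at 24 h, so it was the member called lower from 8 h to 24 h in WT, with a log2 fold change of -1.77 ± 0.69 (adjusted p = 0.0499). That call lay at the threshold, and without replicate 1 of WT at 24 h the adjusted p was 0.294 and the log2 fold change -1.06. Against 0 h, WT at 24 h was lower by a log2 fold change of -3.34 ± 0.62 (adjusted p = 0.000245). In KO it had 1.27 and 1.15 CPM, 0.508 and 0.221 CPM, and 0.544 and 0.538 CPM. Both KO values at 24 h were above both WT values, with a log2 fold change of 1.70 ± 0.69 that did not pass the test (adjusted p = 0.0640). The other tested H4 genes, Hist1h4a, Hist1h4f, Hist1h4h, Hist1h4n and Hist4h4, had at most 29 counts in any library, and 4 of these 5 were called lower in KO at 24 h, Hist4h4 being the exception.

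H2B genes held both the member with the highest level per kilobase in WT at 24 h and 1 of the 2 members higher in KO. Hist1h2bj (chr13:22043214-22043676, plus strand) had 0.118 and 0.601 CPM in WT at 0 h, 0.220 and 0.117 CPM at 8 h and 13.9 and 13.5 CPM at 24 h. Its KO levels were 0.550 and 0.401, 0.0564 and 0.0551, and 1.25 and 0.485 CPM. The rise from 8 h to 24 h passed the test in both genotypes, with log2 fold changes of 6.28 ± 0.54 in WT (adjusted p = 2.78e-07) and 3.80 ± 0.82 in KO (adjusted p = 0.00221). KO against WT at 24 h gave -3.97 ± 0.42 (adjusted p = 3.82e-06). Hist1h2bk had 74 and 63 counts in WT at 24 h and 0 and 4 counts in KO, with 0 to 3 counts in any other library. Hist3h2ba (chr11:58948920-58949533, plus strand) was instead highest at 0 h, with 5.72 and 4.33 CPM in WT and 4.02 and 3.51 CPM in KO at 0 h. It stood at 0.165 and 0.176 CPM in WT and 0.338 and 0.662 CPM in KO at 8 h, and at 0.700 and 0.270 CPM in WT and 0.490 and 0.592 CPM in KO at 24 h. It fell by 8 h with a log2 fold change of -4.83 ± 0.50 in WT (adjusted p = 6.34e-07) and -2.89 ± 0.42 in KO (adjusted p = 2.87e-05), and KO and WT overlapped at 24 h (log2 fold change 0.16 ± 0.51, adjusted p = 0.844).

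Hist2h2be (chr3:96221119-96223738, plus strand), in whose long annotated 3′ UTR no stem-loop was found, also fell early. It had 11.9 and 12.03 CPM in WT at 0 h, 1.65 and 1.99 CPM at 8 h and 1.45 and 2.33 CPM at 24 h. In KO it had 8.80 and 6.11 CPM, 1.58 and 2.59 CPM, and 3.92 and 3.55 CPM. At 24 h both KO values were above both WT values, with a log2 fold change of 0.98 ± 0.30 (adjusted p = 0.0188). The call was lost without replicate 1 of KO at 24 h (adjusted p = 0.0828) or replicate 1 of WT at 24 h (adjusted p = 0.173, log2 fold change 0.70). At 0 h the difference had the other sign and did not pass the test (-0.68 ± 0.26, adjusted p = 0.168). From 8 h to 24 h the level in WT changed by a log2 fold change of 0.05 ± 0.33 (adjusted p = 0.916).

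Only 5 of the 18 H2A genes had enough counts to test. Hist1h2ai (chr13:21716422-21716814, plus strand) had 2.26 and 3.24 CPM in WT at 24 h and 0 and 0.0538 CPM in KO, that is 102 counts against 1. The ratio was 102-fold lower in KO with a 95% counting interval of 17.8 to 4055. It had 4 counts in WT at 0 h, 1 in KO at 0 h and none at 8 h. WT at 24 h was 23.1-fold higher than at 0 h, with an interval of 8.75 to 86.4, and at least 32.3-fold higher than at 8 h. Of the gene's windows 86.1% are shared with other genes. Hist1h2ae (chr13:23570517-23571220, minus strand) had 0.236 and 0.361 CPM in WT at 0 h, 0 and 0.117 CPM at 8 h and 2.53 and 2.11 CPM at 24 h. In KO it had 0.495 and 0.351 CPM at 0 h, no count at 8 h, and 0.163 and 0.108 CPM at 24 h, when it was lower than WT by a log2 fold change of -4.03 ± 0.68 (adjusted p = 0.000364). Hist1h2ag, which was called lower as well, had 40 and 42 counts in WT at 24 h and 1 and 1 in KO. Hist1h2ai, Hist1h2ae and Hist1h2ag passed the filter on low counts only through the WT libraries at 24 h. That route favours members high in that group, so their calls were favoured by the filter.

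Hist3h2a (chr11:58954685-58956830, plus strand) was the H2A gene called higher in KO at 24 h. It had 4.07 and 3.37 CPM in WT at 0 h, 0.936 and 0.527 CPM at 8 h and 0.269 and 0.379 CPM at 24 h. In KO it had 3.19 and 2.96 CPM at 0 h, 0.395 and 0.551 CPM at 8 h and 2.23 and 1.35 CPM at 24 h. The KO values at 24 h were above those at 8 h and above both WT values. KO rose from 8 h to 24 h by a log2 fold change of 1.90 ± 0.43 (adjusted p = 0.00308), and WT at 24 h had a value of -1.17 ± 0.50 against 8 h that did not pass the test (adjusted p = 0.0736). KO against WT at 24 h gave 2.44 ± 0.45 (adjusted p = 0.000604). The annotated exons of Hist3h2a overlap those of Trim17 on the same strand, so reads of both could be mixed. Trim17 had 0.108 and 0.0541 CPM in WT and 0.381 and 0.323 CPM in KO at 24 h, and its part in the result was not tested. The remaining tested H2A gene, Hist1h2ac, gave 0.82 ± 0.95 in KO against WT at 24 h and did not pass the test (adjusted p = 0.534).

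The linker histone genes followed different courses. Hist1h1c (chr13:23738808-23740367, plus strand), which encodes the H1 form H1.2, was the most abundant member at 0 h, with 36.8 and 31.5 CPM in WT and 36.8 and 41.7 CPM in KO. It fell to 1.71 and 1.35 CPM in WT and 1.13 and 2.59 CPM in KO at 8 h, and stood at 3.45 and 3.89 CPM in WT and 4.95 and 4.68 CPM in KO at 24 h. The log2 fold changes from 0 h to 8 h were -4.47 ± 0.26 in WT (adjusted p = 1.39e-09) and -4.39 ± 0.25 in KO (adjusted p = 1.54e-09). From 8 h to 24 h it rose in both, by 1.26 ± 0.29 in WT (adjusted p = 0.00246) and 1.37 ± 0.27 in KO (adjusted p = 0.00127). KO against WT at 24 h was 0.39 ± 0.25 and did not pass the test (adjusted p = 0.230).

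Hist1h1e (chr13:23620629-23622558, minus strand), which encodes H1.4, had 3.07 and 3.55 CPM in WT at 0 h, 0.275 and 0.0585 CPM at 8 h and 4.14 and 3.84 CPM at 24 h. In KO it had 2.86 and 2.55 CPM, no count in either library at 8 h, and 1.20 and 1.13 CPM. The KO counts of 103 at 0 h and 0 at 8 h make it at least 32.3-fold lower at 8 h. At 24 h KO was lower than WT by a log2 fold change of -1.77 ± 0.35 (adjusted p = 0.0012). Its annotated exons overlap those of Hist1h2be on the same strand, so the reads of these neighbours may be mixed. Hist1h1d (chr13:23553262-23560686, plus strand) had 0.944 and 2.10 CPM in WT at 0 h, 0.331 and 0.176 CPM at 8 h and 2.10 and 2.22 CPM at 24 h, and in KO 0.880 and 1.30, 0.226 and 0, and 0.871 and 0.808 CPM. Both KO values at 24 h were below both WT values, with a log2 fold change of -1.36 ± 0.54 that did not pass the test (adjusted p = 0.0609). Hist1h1a had 24 and 31 counts in WT and 2 and 2 in KO at 24 h, and Hist1h1b had 17 and 24 against 0 and 1, and both were called lower in KO. Hist1h1b passed the filter on low counts only through the WT libraries at 24 h. The testis form Hist1h1t had no count.

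**Figure D4:**
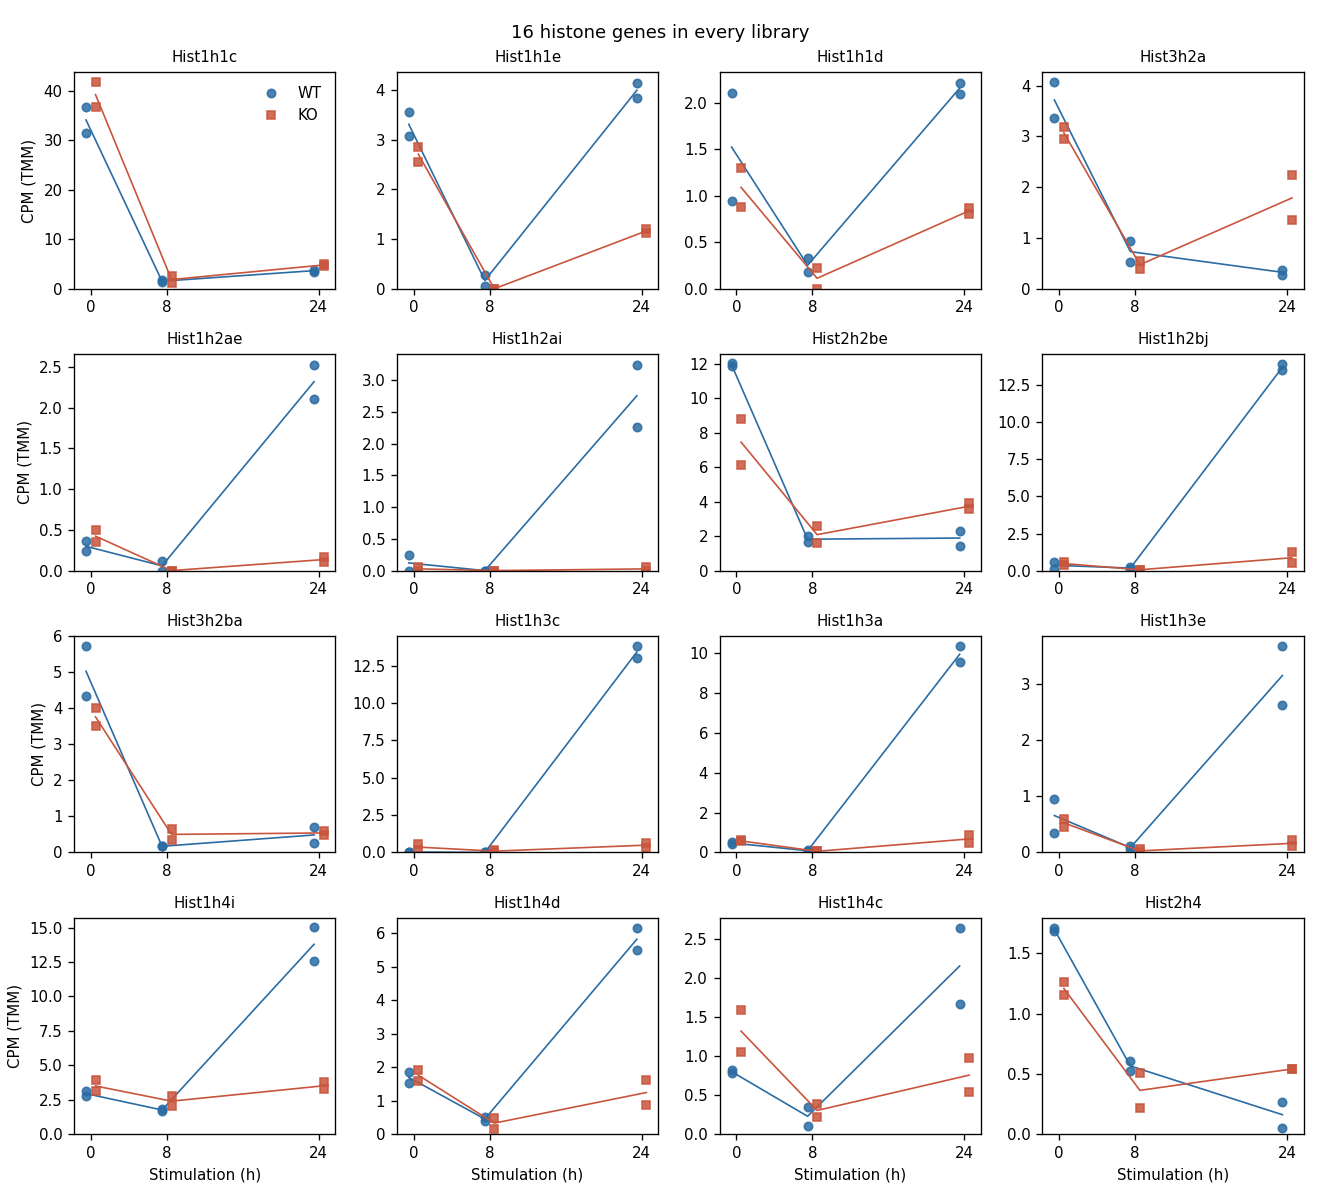
Level in CPM (linear axis) against hours of stimulation for the 16 members described with all their values, 1 panel per gene, with each point 1 library and lines through the means of WT and KO. Most panels show a WT rise at 24 h, while Hist1h1c, Hist2h2be, Hist3h2a, Hist3h2ba and Hist2h4 are highest at 0 h.

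Members were also sorted by where their annotated transcripts end: 23 end under 100 bases after the stem-loop, 17 end near the stop codon with no loop found, 23 run 100 bases or more past the loop, and 4 have a long 3′ UTR with no loop found. The sums over these groups are descriptions without a test, are not corrected for exon length and rest largely on a few genes. At 0 h in WT, members annotated past the loop gave 75.4% of the family's CPM and those ending near the loop 4.75%. Hist1h1c, annotated past the loop, alone gave 42.7% at that time. At 24 h the shares were 41.7% and 45.5% in WT, and 66.5% and 12.9% in KO. Of the members ending near the loop, Hist1h2bj, Hist1h3c and Hist1h3a gave 12.1%, 11.8% and 8.75% of the family's CPM in WT at 24 h. In absolute terms, the members ending near the loop summed to 52.5 and 50.9 CPM in WT and 4.19 and 2.58 CPM in KO at 24 h, a 15.3-fold lower mean. Those ending near the stop codon summed to 10.4 and 12.9 CPM in WT and 0.381 and 0.700 CPM in KO, 21.6-fold lower. Members past the loop differed less, with 44.0 and 50.6 CPM in WT against 19.3 and 15.7 CPM in KO, 2.704-fold lower. The 4 members with a long 3′ UTR and no loop found had 2.37 and 3.30 CPM in WT and 5.33 and 4.42 CPM in KO. All 11 tested members ending near the loop and all 6 ending near the stop codon were called lower in KO at 24 h, as were 11 of 18 past the loop. Called higher were 1 of the 18 past the loop and 1 of the 2 tested members with a long 3′ UTR and no loop found. The shares over all genes were 20.7% lower and 17.9% higher. However, 7 of the 11 near the loop and 5 of the 6 near the stop codon had passed the filter only through WT at 24 h, against 4 of the 18 past the loop. Their calls were favoured by that route. Counts per gene do not show where a read lies in the transcript, so whether reads ended at the stem-loop or ran past it was not measured.

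H2A and H2B genes of these clusters often start back to back from a shared promoter, and 12 such pairs lay 175 to 305 bases apart. In WT at 24 h, Hist1h2bj drew 508 counts and its partner Hist1h2ag 82. Hist1h2bk drew 137 and Hist1h2ah 9. In the other direction, Hist1h2ae drew 86 counts and Hist1h2bg 43, and Hist1h2ai drew 102 and Hist1h2bl 38. The H2B gene had more counts in 6 of the 12 pairs, the H2A gene in 4, and 2 pairs had none. These counts are not corrected for length, and Hist1h2ah and Hist1h2ai share most of their windows with other genes. At 24 h in KO, Hist1h2bj drew 32 counts and Hist1h2ag 2, and both genes were called lower. The pair of Hist2h2ac and Hist2h2be showed 24 and 401 counts in WT at 0 h and 6 and 70 at 24 h.

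Another 20 members had a count but too few for the test, with at most 21 counts in a library. That highest count was of Hist2h2ac, with 3 and 21 counts in WT at 0 h and 3 and 3 at 24 h. Hist1h2ak had 13 and 7 counts in WT at 24 h and none in KO, Hist1h4k 10 and 11 against 1 and 1, and Hist1h2bn 8 and 8 against 0 and 1. Hist2h3c2 was the reverse, with 0 and 0 counts in WT and 5 and 1 in KO at 24 h. These values are given as counts without a test.

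Genes that make and break down histone messages were also lower in KO at 24 h. Of 18 listed genes for histone transcription, 3′ end processing and decay, 14 were lower, 1 was higher and 3 did not pass the test, with a median log2 fold change of -0.47, against 0.02 over all genes. The shares over all genes were 20.7% lower and 17.9% higher. Slbp, which binds the stem-loop, had 185.2 ± 1.27 CPM in WT (SD, n = 2) and 52.5 ± 0.566 CPM in KO (SD, n = 2), a log2 fold change of -1.82 ± 0.09 (SE, adjusted p = 1.15e-09). Casp8ap2, also called FLASH, which joins the cleavage complex, had 125.6 CPM in WT and 50.6 CPM in KO, a log2 fold change of -1.31 ± 0.15. Eri1, the exonuclease that trims the stem-loop end, gave -0.84 ± 0.13, and Ncbp1, of the cap-binding complex, gave -0.52 ± 0.09. Tut7, a uridyl transferase linked to histone message decay, was the gene that was higher, at 0.69 ± 0.11. Npat, named here after its values were seen, gave -0.56 ± 0.15 (adjusted p = 0.00982). Slbp did not pass the test at 0 h (0.17 ± 0.09, adjusted p = 0.368) or at 8 h (-0.03 ± 0.09, adjusted p = 0.948).

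Of 24 listed genes of histone chaperones, which carry new histones to DNA, and of histone acetylation, 18 were lower and 1 was higher in KO at 24 h, with a median log2 fold change of -0.85. Over all genes 20.7% were lower and 17.9% higher. Chaf1b and Chaf1a, subunits of the CAF-1 complex that deposits H3 and H4 behind the replication fork, gave -3.69 ± 0.13 and -3.30 ± 0.15. Asf1b, which hands H3 and H4 to CAF-1, gave -3.40 ± 0.17, Mms22l gave -2.35 ± 0.13, and Nasp, which holds the pool of soluble H3 and H4, gave -1.71 ± 0.09. Ipo4, an import receptor for H3 and H4, was the higher one at 0.35 ± 0.11 and is named after its value was seen. Of 10 tested replication-independent histone genes, 5 were lower and 2 higher, and 2 of 10 is near the 17.9% of all genes called higher. H2afz, which encodes the variant H2A.Z, had a log2 fold change of -1.63 ± 0.13, Cenpa, the centromeric H3, of -1.50 ± 0.19 and H2afy, a macroH2A, of -0.46 ± 0.09. H2afj gave 1.13 ± 0.14 and H1f0, the H1 form of non-dividing cells, 0.87 ± 0.15.

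**Figure D5:**
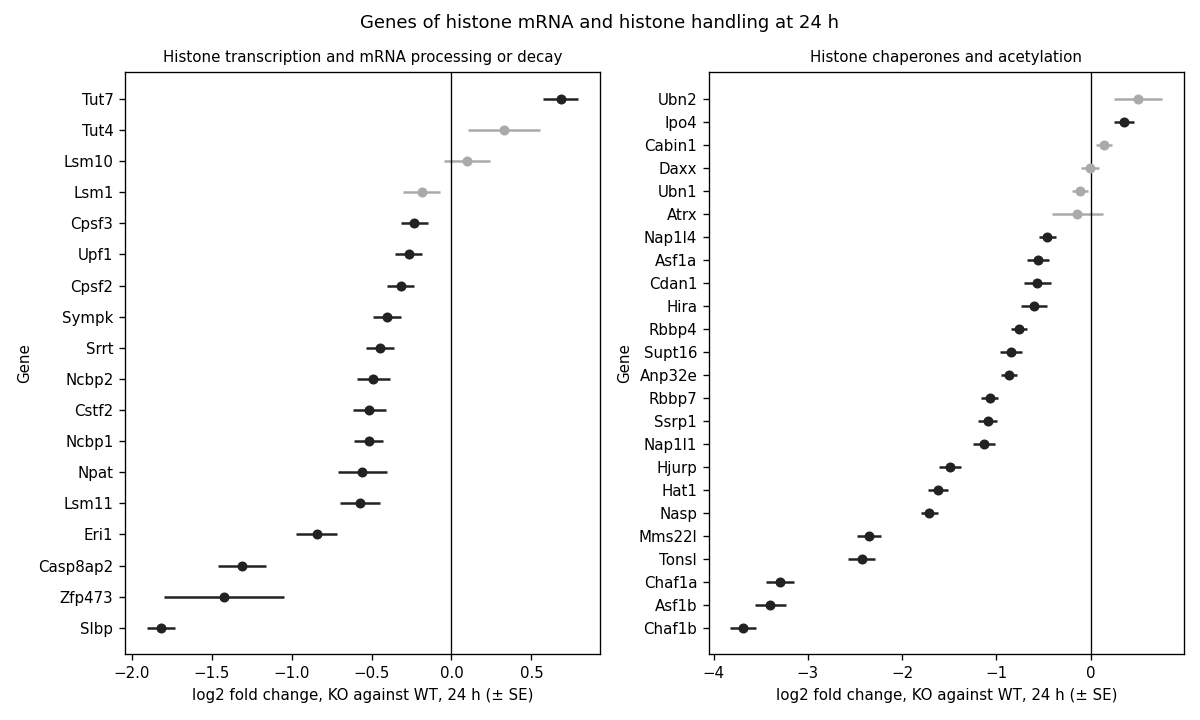
Log2 fold change of KO against WT at 24 h (horizontal axis, bars 1 standard error from edgeR) for 18 genes of histone transcription and message handling (left) and 24 histone chaperone and acetylation genes (right). Black marks an adjusted p below 0.05 and grey the rest, and Slbp on the left and Chaf1b, Asf1b and Chaf1a on the right lie lowest.

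Markers of S phase were also lower in KO at 24 h, when 20.7% of all genes were called lower and 17.9% higher. Their 20 genes summed to 7702 and 7553 CPM in WT at 24 h and to 1123 and 1165 CPM in KO, and 20 of 20 were called lower in KO, among them Lig1 at a log2 fold change of -3.86 ± 0.13 and Mcm4 at -2.77 ± 0.09. At 0 h the order was the other one: 10 of the 20 were called higher in KO and 0 lower, with sums of 742.9 and 704.9 CPM in WT and 983.9 and 882.2 CPM in KO. The shares over all genes at 0 h were 4.63% higher and 1.07% lower. At 8 h 4 of the 20 were called lower and 0 higher, against 0.746% and 1.90% of all genes. From 0 h to 8 h in WT, while the histone genes fell, 11 of the 20 were called higher and 3 lower, and their sums at 8 h were 1267 and 1255 CPM. The shares over all genes were 28.3% higher and 33.6% lower. In KO 2 of the 20 were called higher and 10 lower over the same hours, with sums of 992.1 and 951.3 CPM at 8 h. There the shares over all genes were 28.6% higher and 32.9% lower. The change of the genotype difference from 0 h to 8 h was called downward for 12 of the 20 and upward for 0. Over all genes it was called downward for 0.733% and upward for 0.261%. Of 10 regulators of S phase entry, 8 were lower in KO at 24 h, among them Ccne1 (cyclin E1) at -4.41 ± 0.17 and E2f1 at -3.64 ± 0.14. The 2 higher ones were the cyclin-dependent kinase inhibitors Cdkn1a at 3.98 ± 0.33 and Cdkn1b at 0.47 ± 0.13, named after their values were seen. Markers of other cells were compared at 24 h as well. Neutrophil and granulocyte progenitor markers summed to 0.592 and 0.433 CPM in WT and to 22.1 and 87.2 CPM in KO. Of these, 5 of 10 were called higher, and Elane, Cebpe, S100a9, Camp and Ngp were at 0 in WT. Of the other marker lists, 3 of 11 T cell, 3 of 5 naive T cell, 1 of 6 CD8 T and NK cell, 1 of 5 monocyte and 1 of 5 erythroid genes were called higher in KO and none of these lists had a gene called lower. Of 4 tested B and plasma cell genes 0 were called. Shares of 1 in 5 or 1 in 6 are near the 17.9% of all genes called higher. The sums of these lists were nevertheless higher in both KO libraries than in both WT libraries at 24 h. CD8 T and NK cell markers summed to 12.5 and 16.2 CPM in WT and to 62.7 and 53.4 CPM in KO. Monocyte markers summed to 14.2 and 11.4 CPM in WT and to 29.8 and 27.1 CPM in KO. Erythroid markers summed to 12.4 and 3.68 CPM in WT and to 17.6 and 19.4 CPM in KO. The part of S phase genes and of other cells' RNA in the histone differences was not tested.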

How the data were processed

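Gene counts of 12 RNA libraries, 2 for each genotype and time, were used as the authors deposited them, as raw counts per gene. Per the submitters' processing notes, fastp 0.12.4, STAR 2.7.1a and mm10 were used, whereas the sources used here do not give the counter, its annotation or how it treated reads with several matches or molecular tags. Per the labels' protocols, libraries were stranded and depleted of ribosomal RNA. Genes with enough counts (edgeR filterByExpr by group, minimum 10, total 15) numbered 15679. They were fitted with edgeR 4.0.16 in R 4.3.3 (quasi-likelihood, TMM scaling, 1 mean per group, 6 residual degrees of freedom), with Benjamini-Hochberg adjustment over all of them and calls at 0.05, after a check on simulated counts. A fold against a group at 0 uses 3 counts over the group, and count ratios have exact 95% intervals. Intervals and limits cover counting error only. The alternatives were DESeq2 1.42.0, other scaling, other filters, a replicate block, the libraries of 1 time alone, and leaving out each library. Values in every library are given for the 3 members of each class with the highest mean CPM among those tested, the members called higher in KO at any time, and those called lower from 8 h to 24 h in WT; of the other lists, up to 5 genes with the smallest p at 24 h. Sequences come from GRCm38 and RefSeq. The members, lists and groups by annotated end were chosen with earlier results of these data known, and the 3 comparisons of 24 h with 0 h were added after the data were seen.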

Additional observations from a re-analysis of the deposited data

Results flagged for a closer look

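The difference between KO and WT changed between times in 11 of the members given in every library. From 0 h to 24 h the change was called downward for 19 of the 37 tested members and upward for 2. The shares over all genes were 14.8% and 11.9%. Of the 19, 10 had passed the filter on low counts only through WT at 24 h. From 8 h to 24 h it was called downward for 2 of the 37 and upward for 1, against 8.96% and 5.49% of all genes. From 0 h to 24 h, the change of the log2 fold change of KO against WT was -8.10 for Hist1h3c (adjusted p = 0.000199, edgeR's quasi-likelihood test), -4.52 for Hist1h2ae (0.00418), -4.37 for Hist1h2bj (0.000719), -4.13 for Hist1h3a (6.77e-05) and -3.91 for Hist1h3e (0.00492). It was -2.27 for Hist1h4d (0.00572), -2.21 for Hist1h4i (0.000197), -2.21 for Hist1h4c (0.0306) and -1.48 for Hist1h1e (0.0345). It was positive for Hist3h2a, at 2.72 (0.00254), and for Hist2h2be, at 1.66 (0.00647). Hist1h2ae passed the filter on low counts only through the WT libraries at 24 h, a route that favours members high in that group. The comparison of these times was added after the data had been seen, and the values of Hist1h4c and Hist1h1e did not pass in DESeq2 (0.0804 and 0.0842). Hist1h1e was also not called without any 1 of the 8 libraries of these times except replicate 2 of KO at 0 h (adjusted p from 0.0642 to 0.104). Hist1h4c was not called without either WT replicate at 0 h, replicate 1 of KO at 0 h, or replicate 2 of either genotype at 24 h (0.0676 to 0.131). From 8 h to 24 h the change was -2.41 for Hist1h4i (0.00028), 3.07 for Hist3h2a (0.00538) and -8.47 for Hist1h3c (0.019). Hist1h3c had no count in WT at 8 h, so the size of its last value depends on the fit's prior count, and without replicate 1 of KO at 8 h the value was -4.77 with an adjusted p of 1.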

How the results depend on the processing

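The count of members called between KO and WT at 24 h (30) was 22 in DESeq2, 34 without filtering, 25 with a minimum of 1 CPM in 2 libraries and 21 to 33 with 1 library left out. With no filter, 1 member was called at 0 h (Hist1h3c, 57 members tested) against 0. With 1 library left out, the counts ran from 12 to 25 for WT from 0 h to 8 h (20), from 6 to 12 for KO from 8 h to 24 h (13) and from 3 to 10 for KO from 0 h to 24 h (9). The change of the genotype difference from 0 h to 24 h (21 called) was called for 8 members in DESeq2, which gave values for 19. The log2 ratio of the summed CPM of KO to WT at 0 h was 0.02 and became 0.069 with plain library totals, while at 24 h it ran from -2.28 to -1.96 with 1 library left out. The labels do not say that replicate numbers pair libraries. Correlations of same-numbered libraries' deviations ran from -0.0997 to 0.288, and 8 of 15 exceeded 0.1, among them all 3 within KO (0.288, 0.222 and 0.111), so a pairing was not taken as given. A replicate block gave 31 calls at 24 h and 31 for WT from 8 h to 24 h (32), where Hist2h4 was not called (adjusted p = 0.0581). Of 91 called values of single members, 70 were called under every alternative run, and none changed sign. Near the counting floor, mostly at 8 h, differences between genotypes were not detectable at this depth.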
